A study of Saccharomyces cerevisiae with 4 samples.

Results

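The small-subunit processome is the nucleolar assembly in which yeast cells fold, modify and cut the precursor of the small ribosomal RNA, and the genes described here encode its protein factors. The group holds 44 genes: the UTP proteins, the core proteins of box C/D small nucleolar ribonucleoproteins and other assembly factors of the 40S precursor. They were chosen from textbook knowledge, with earlier results of these data known. All 44 were found among the 5449 Saccharomyces cerevisiae genes tested, each through a single probe set that carries no mark of binding several transcripts. Transcript levels came from 4 Affymetrix arrays of the haploid strain BY4741, which is of mating type a and lacks working copies of HIS3, LEU2, MET17 and URA3. All cultures were grown in the rich medium YPD. Honokiol, a plant biphenol known from magnolia, was given to a pair of cultures for 2 h at 12 µg/mL, and the other pair had the same volume of ethanol, its solvent, for 2 h (honokiol 0 µg/mL). The labels give an age of 8 h for every sample and call the replicates biological, without saying how they were grown, so p-values measure the spread between these samples.

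Work on yeast has described how the processome forms. The U3 small nucleolar RNA pairs with the nascent ribosomal RNA precursor, and preformed protein blocks join it in order: UTP-A and UTP-B on the leading spacer of the transcript, then the U3 particle, the MPP10 complex and many single factors. Their genes belong to the ribosome biogenesis regulon, whose transcripts are known to follow nutrient and growth signals under the activator SFP1 and the repressors STB3, DOT6 and TOD6.

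As a check of the strain, LEU2, MET17 and URA3 lay between 2.73 and 4.56 in log2 intensity on all 4 arrays, near or below the background level of 4.37. HIS3 lay between 10.70 and 11.05. BY4741 carries an internal deletion in that gene, so a probe set outside the lost part checks nothing. The mating type a genes MFA1, MFA2, STE2 and BAR1 lay between 10.89 and 13.52. Of the alpha genes, MF(ALPHA)1 lay below background (3.27 to 3.83), and MF(ALPHA)2 (5.45 to 6.58) and STE3 (7.14 to 7.98) above it. Some mating type genes differed between honokiol and ethanol at an adjusted p under 0.05 in the limma test described below. The log2 difference was 0.59 for STE3, -0.69 for MFA1, -0.42 for STE2 and -1.15 for BAR1. MFA2, MF(ALPHA)1 and MF(ALPHA)2 (log2 difference 0.59) did not pass. The cause was not tested. The median log2 intensity over all tested genes was between 9.57 and 9.59 on each array. The 5′ to 3′ ratio, a measure of RNA quality, was not equal between arrays. Over 7 control transcripts, the mean log2 ratio of the 5′ to the 3′ probe set was -1.18 and -1.22 in the honokiol samples, against -1.31 and -1.67 in the ethanol samples. Ethanol array 2 was the lowest on each of the 7.

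Transcripts of most processome genes were higher with honokiol, in 9 of 10 subgroups. Of the 44 genes, 39 passed the test as higher (88.6%) and 0 as lower, where 23.9% of all tested genes passed as higher and 25% as lower. A gene passed at an adjusted p under 0.05 in limma's moderated test, adjusted over all 5449 genes. All 44 differences were above 0, with a median of 0.55 on the log2 scale (1.46-fold), against a median of 0.0052 over all tested genes. At least 2-fold rises were found for 10 of the 44, and for 3.78% of all tested genes. Both honokiol arrays lay above both ethanol arrays for 42 of the 44 and for 40% of all tested genes. The labelled replicates of bulk RNA do not show whether all cells changed or only some, and because the arrays were scaled to one distribution, a change in total RNA per cell cannot be told apart from none.

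**Figure D1:**
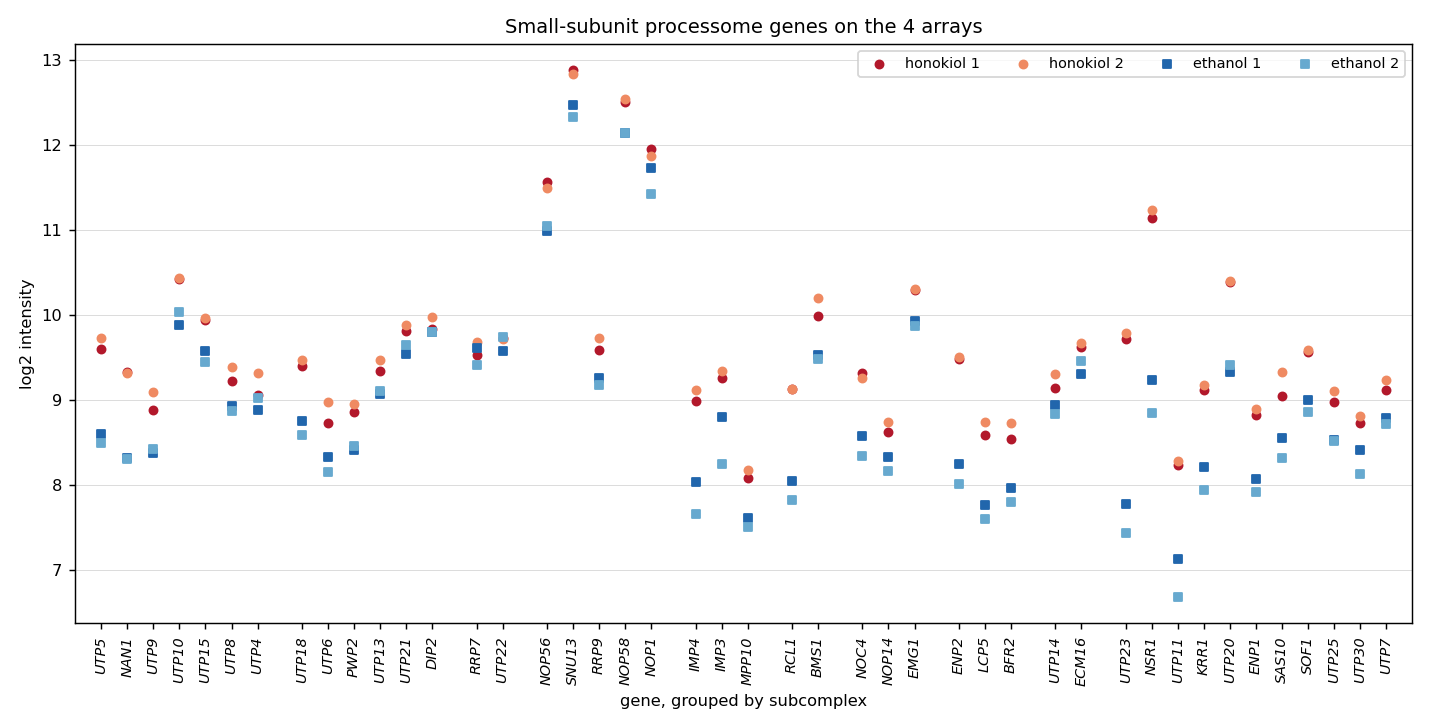
Log2 intensity (vertical axis) of each of the 44 processome genes on the 2 honokiol arrays (circles) and the 2 ethanol arrays (squares), with genes grouped by subcomplex along the horizontal axis. The circles lie above the squares for 42 genes and overlap with them for UTP22 and RRP7; heights are not comparable between genes, since each has its own probe set.

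The arrays of each group were not alike over these genes. Honokiol array 2 gave the highest value for 38 of the 44 genes and honokiol array 1 for 5. Ethanol array 2 gave the lowest value for 33 and ethanol array 1 for 11. Honokiol array 2 was above honokiol array 1 for 38 of the 44 genes and for 47.3% of all tested genes. Ethanol array 1 was above ethanol array 2 for 33 of the 44 and for 53.9% of all tested genes. The only gene with its highest value on an ethanol array was UTP22. Relative to each gene's own mean over the 4 arrays, the median over the 44 genes was 0.22 (honokiol 1), 0.33 (honokiol 2), -0.26 (ethanol 1) and -0.32 (ethanol 2) on the log2 scale. The step between the groups was thus larger than the step within either. Leaving out 1 honokiol array at a time took the number that passed from 39 to 22 (without array 1, where 8.06% of all genes passed as higher) or to 16 (without array 2, 8.09%), with the error then estimated from the ethanol pair alone. Without ethanol array 1 it was 38 (30% of all genes), and without ethanol array 2 also 38 (22.7%).

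UTP-A is the block that binds first to the leading spacer of the nascent precursor, and 6 of its 7 genes rose. UTP5 had log2 intensities of 9.601 and 9.727 with honokiol and 8.596 and 8.492 with ethanol. It rose 2.17-fold (log2 difference 1.12 ± 0.077, SE; adjusted p = 0.00153), the largest change in the block. NAN1, also known as UTP17, had nearly equal replicates, 9.32 and 9.31 with honokiol against 8.32 and 8.31 with ethanol, and rose 2.01-fold (adjusted p = 0.00128). UTP9, UTP10, UTP15 and UTP8 rose by less, between 1.32-fold and 1.51-fold. UTP4 did not pass. Its honokiol arrays stood at 9.06 and 9.31 and its ethanol arrays at 8.87 and 9.02, so the groups were separated by less than the gap between either pair of replicates (log2 difference 0.24, 95% interval -0.05 to 0.53; adjusted p = 0.136).

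UTP-B, a block built mainly of WD-repeat proteins, showed smaller changes, with 5 of 6 genes higher and a median log2 difference of 0.39. UTP18, which in yeast brings the RNA exosome to the processome, had 9.40 and 9.47 with honokiol and 8.75 and 8.58 with ethanol. It rose 1.70-fold (adjusted p = 0.00358). UTP6 rose 1.52-fold, PWP2 1.39-fold, UTP13 1.25-fold and UTP21 1.19-fold (adjusted p between 0.0063 and 0.0361). The calls of UTP13 and UTP21 were lost with all probe sets tested as features. Those of UTP6 and UTP13 were lost with the 5′ to 3′ ratio as a covariate (adjusted p = 0.0673 and 0.0525). None of UTP6, PWP2, UTP13 and UTP21 is among the genes, given below, that passed in every fit. DIP2, also known as UTP12, did not pass: its values were 9.83 and 9.98 with honokiol and 9.79 and 9.80 with ethanol, and honokiol array 1 exceeded the ethanol arrays only slightly (log2 difference 0.11, 95% interval -0.08 to 0.30; adjusted p = 0.271).

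UTP-C was the only subgroup with no gene past the threshold. Its member UTP22 had 9.72 and 9.71 with honokiol and 9.57 and 9.74 with ethanol. The groups overlapped, and the log2 difference was 0.064 (95% interval -0.14 to 0.27; adjusted p = 0.535). RRP7, its binding partner, had 9.52 and 9.67 with honokiol and 9.60 and 9.41 with ethanol. These groups overlapped too (log2 difference 0.089, 95% interval -0.16 to 0.34; adjusted p = 0.476), and the sign turned without ethanol array 2 for RRP7 and without ethanol array 1 for UTP22. UTP-C also holds the subunits of casein kinase 2, a general protein kinase, which belong to the further factors counted below and were singled out after their values were seen. The catalytic subunit CKA1 had a log2 difference of -0.21 and passed as lower (adjusted p = 0.0478), and CKA2, CKB1 and CKB2 had log2 differences of -0.092, -0.084 and -0.0074 (adjusted p between 0.237 and 0.937). RRP36, a factor also linked to UTP-C and likewise singled out afterwards, rose 1.61-fold (adjusted p = 0.0062). Whether UTP-C differed from the other blocks was not tested.

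**Figure D2:**
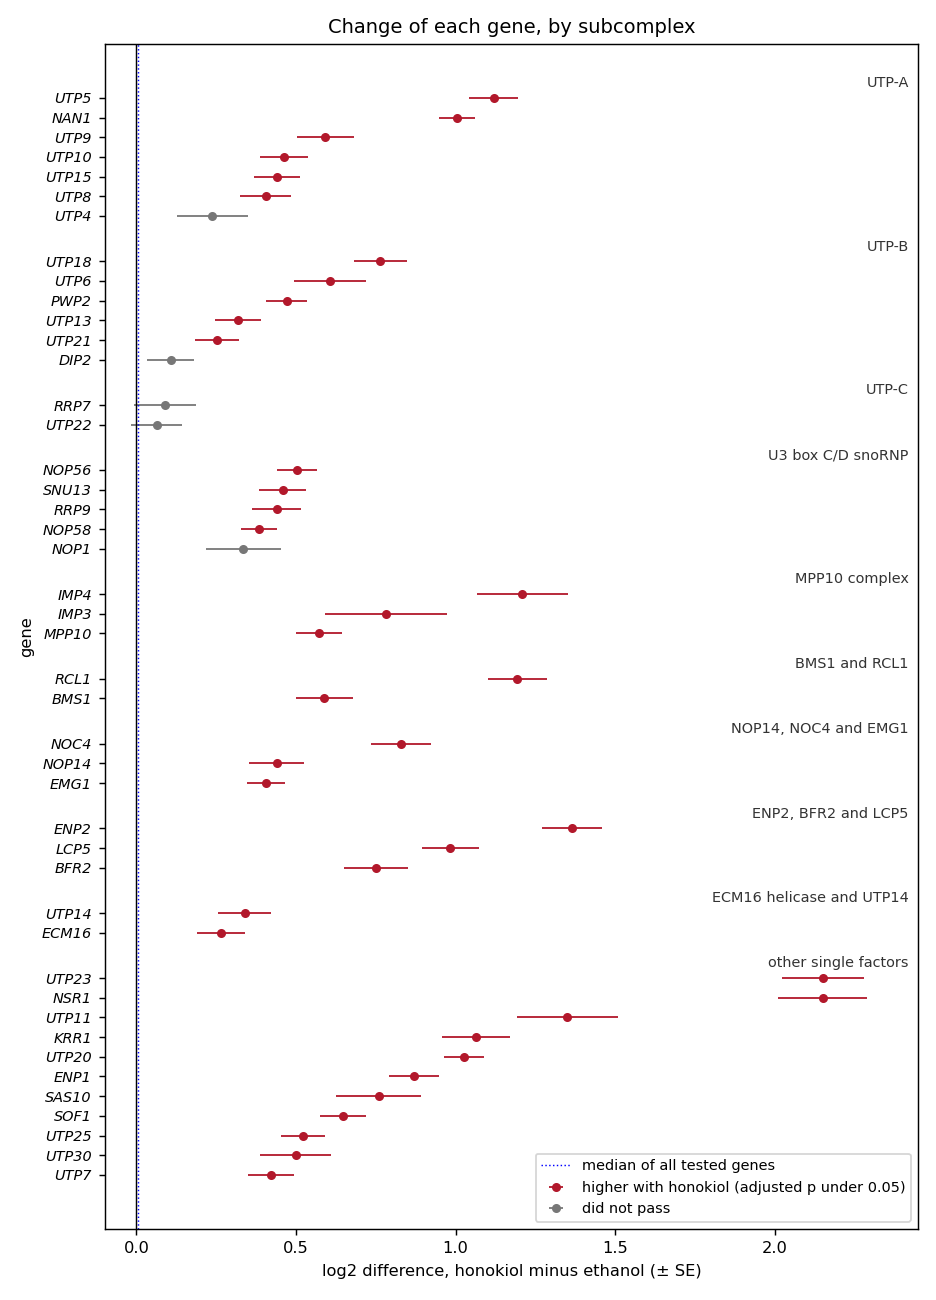
Log2 difference of honokiol minus ethanol (horizontal axis, points with SE bars from the limma fit, 2 arrays a group) for each of the 44 genes, by subcomplex. Red points passed as higher (39 genes) and grey ones did not pass (UTP4, DIP2, RRP7, UTP22 and NOP1); the dotted line marks the median of all tested genes, 0.0052.

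The U3 particle is a box C/D small nucleolar ribonucleoprotein, and 4 of the 5 genes for its proteins passed as higher, by between 1.31-fold and 1.42-fold. NOP56, a scaffold protein of these particles, had 11.56 and 11.48 with honokiol and 10.99 and 11.04 with ethanol, and rose 1.42-fold (adjusted p = 0.00497). Its paralog NOP58 rose 1.31-fold, SNU13, which binds the kink-turn of the RNA and also serves the spliceosome, 1.37-fold, and RRP9, the protein found only on U3, 1.36-fold. NOP1, the fibrillarin methyltransferase, had 11.95 and 11.86 with honokiol and 11.73 and 11.42 with ethanol. Its groups did not overlap, but its ethanol arrays differed by 0.31, and it did not pass (log2 difference 0.33, 95% interval 0.03 to 0.64; adjusted p = 0.0713). NOP1 passed without ethanol array 1 and with the intensity trend and robust prior.

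The MPP10 complex, which helps U3 pair with the precursor, rose in all 3 genes. IMP4 had 8.99 and 9.12 with honokiol and 8.04 and 7.65 with ethanol, and rose 2.31-fold (log2 difference 1.21 ± 0.14; adjusted p = 0.00437). MPP10 had 8.081 and 8.168 with honokiol and 7.611 and 7.497 with ethanol, and rose 1.49-fold (adjusted p = 0.00517). IMP3 rose 1.72-fold (adjusted p = 0.0265), with ethanol arrays that differed by 0.56, the widest ethanol pair among the 44 genes; it did not pass without either honokiol array.

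The GTPase BMS1 and its partner RCL1 both rose. RCL1 had 9.12 on each honokiol array and 8.04 and 7.82 with ethanol, a 2.29-fold rise (adjusted p = 0.00188). BMS1 had 9.99 and 10.20 with honokiol and 9.53 and 9.48 with ethanol, a rise of 0.59 on the log2 scale (adjusted p = 0.00788). For both genes the honokiol values were clear of the ethanol values. NOC4, which acts in a complex with NOP14, had 9.31 and 9.25 with honokiol and 8.57 and 8.34 with ethanol, and rose 1.78-fold (adjusted p = 0.004). NOP14 rose 1.36-fold, and EMG1, a methyltransferase of the small ribosomal RNA, had 10.29 and 10.30 against 9.92 and 9.86 and rose 1.32-fold (adjusted p = 0.00708).

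ENP2, BFR2 and LCP5, which bind each other in the processome, rose more, with a median of 1.98-fold. ENP2 had 9.48 and 9.50 with honokiol and 8.24 and 8.01 with ethanol, and rose 2.57-fold (log2 difference 1.36 ± 0.094; adjusted p = 0.00153). BFR2 had 8.54 and 8.72 against 7.97 and 7.79, and rose 1.68-fold (adjusted p = 0.00562). LCP5 lay between them at 1.98-fold. ECM16, the helicase that releases U3, and its activator UTP14 showed the smallest changes among subgroups in which every gene passed. ECM16 had 9.62 and 9.66 with honokiol and 9.30 and 9.45 with ethanol, and rose 1.20-fold (adjusted p = 0.0402). UTP14 had 9.14 and 9.30 against 8.93 and 8.83, and rose 1.27-fold (adjusted p = 0.0269). Both calls were lost without either honokiol array and with all probe sets tested as features. The ECM16 call was also lost without ethanol array 1. The UTP14 call was also lost without ethanol array 2 and with the 5′ to 3′ ratio as a covariate.

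The remaining 11 factors act singly, and all of them rose. UTP23, a PIN-domain protein needed for the release of the small nucleolar RNA snR30, had 9.72 and 9.79 with honokiol and 7.77 and 7.43 with ethanol. Its 4.44-fold rise (log2 difference 2.15 ± 0.13; adjusted p = 0.00131) ranked 22nd among all 5449 genes. NSR1, the yeast counterpart of nucleolin, had 11.14 and 11.23 with honokiol and 9.22 and 8.84 with ethanol and ranked 24th (log2 difference 2.15 ± 0.14; adjusted p = 0.00139). Next came UTP11 with 8.22 and 8.28 against 7.13 and 6.68, a 2.55-fold rise (adjusted p = 0.00429). KRR1, a KH-domain protein, and UTP20, the largest gene of the group, rose 2.09-fold and 2.04-fold (adjusted p = 0.00308 and 0.00132). The replicates of UTP20 were close, at 10.39 on both honokiol arrays and 9.32 and 9.41 on the ethanol arrays. ENP1, which stays with the particle into later 40S maturation, rose 1.83-fold, SAS10 1.69-fold, the WD-repeat protein SOF1 1.57-fold, UTP25 1.44-fold and UTP30 1.41-fold. UTP7 had the smallest change of these, with 9.11 and 9.23 against 8.79 and 8.72 (1.34-fold, adjusted p = 0.0101).

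The 15 genes UTP5, NAN1, UTP18, IMP4, RCL1, NOC4, ENP2, LCP5, UTP11, UTP20, UTP23, ENP1, KRR1, SOF1 and NSR1 passed as higher in every one of the 14 other fits, which include those without each array, as did 6.68% of all tested genes. They came from 7 of the 10 subgroups. The subgroups with none of them were UTP-C, the U3 particle and the pair of ECM16 and UTP14. In the share of all tested genes, a gene left out of a fit counted as not passing. That was so for the 113 genes whose probe sets are marked as binding several transcripts and for dim genes, but for none of the 44. The share is therefore somewhat low as a comparison.

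Gene length moved with these values and is given beside them. The 5449 genes were put in 4 length classes of nearly equal size. Over all tested genes, the median log2 difference between honokiol and ethanol was 0.14 in the class of the shortest genes (up to 756 bases) and -0.17 in the class of the longest (from 1902 bases). The median of the processome genes was above that of all genes in each class. The 3 members in the shortest class had a median of 0.78, the 9 in the next 0.98, the 15 in the third 0.61 and the 17 in the longest 0.44. In the longest class 14 of 17 members passed as higher, against 14.3% of all genes of that length. The difference between the ethanol arrays also went with length. Ethanol array 1 was higher than array 2 for 33 of the 44 genes, against 53.9% of all tested genes. The median difference was 0.12 over the 44 and 0.0135 over all tested genes. Across the 44 genes the difference between the ethanol arrays correlated with log2 length at r = -0.74. The difference between honokiol and ethanol correlated with log2 length at r = -0.29 and with the difference between the ethanol arrays at r = 0.59. Genes are not independent replicates, the 44 points share the same arrays, and the last pair of measures shares the ethanol values.

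**Figure D3:**
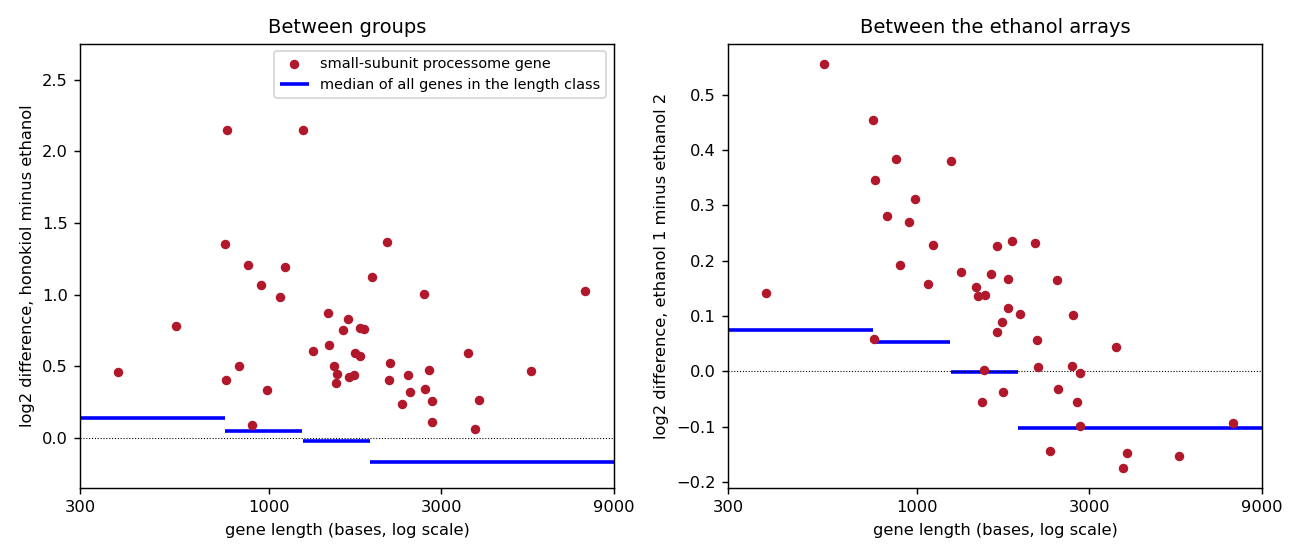
Gene length in bases (horizontal axis, log scale) against the log2 difference of honokiol minus ethanol (left) and of ethanol array 1 minus ethanol array 2 (right) for the 44 processome genes (points), with the median of all tested genes in each length class (blue lines). On the left all points lie above the blue lines; on the right short genes tend to lie above 0 and long genes near or below it (r = -0.74).

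The 5′ to 3′ ratio of the control transcripts, entered as a covariate, left 30 of the 44 genes higher and 0 lower, with a median log2 difference of 0.52; 17.1% of all tested genes then passed as higher. The difference for UTP23 was then 1.89 and that for NSR1 1.86 (adjusted p = 0.00253 and 0.00298). Of the 17 members in the longest class, 10 had a larger difference than before (UTP20 1.10, UTP10 0.58 and UTP4 0.38). The median of all 17 went from 0.44 to 0.38. In the third class 3 of 15 had a larger difference than before, and in the classes of shorter genes 0 of 3 and 0 of 9. NOP1 and IMP3 had differences of 0.084 and 0.36 (adjusted p = 0.431 and 0.0611). The ratio is lower in both ethanol samples, so this fit has little information to separate it from the treatment, and its part in the result beyond these values was not tested.

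A further 28 genes for processome factors outside the group were listed from textbook knowledge, also with earlier results of these data known. Of these, 21 passed as higher (75%) and 2 as lower (7.14%), against 23.9% and 25% of all tested genes. Their median log2 difference was 0.65. The largest rise was that of FAF1, a factor for early pre-ribosomal RNA cuts, with 7.24 and 7.52 against 5.28 and 5.005 (4.71-fold, adjusted p = 0.00132). Its ethanol values were close to the background level of 4.37, so the size of this rise is less certain. The helicase DHR2 rose 4.04-fold (adjusted p = 0.00552), although its ethanol arrays, at 6.17 and 5.39, were far apart. MRD1, an RNA-binding factor, rose 2.63-fold and the helicase HCA4 2.48-fold (adjusted p = 0.00098 and 0.00131). The genes that passed as lower were CKA1 and FCF1. FCF1, also known as UTP24, is a PIN-domain nuclease that cuts the precursor. Its values were 10.29 and 10.43 with honokiol and 10.60 and 10.64 with ethanol, and its log2 difference was -0.26 (adjusted p = 0.0382). Neither was called lower with quantile normalization again, with the 5′ to 3′ covariate or with all probe sets as features.

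Most genes on a list for later steps of small-subunit maturation, from the nucleus to the cytoplasm, were higher as well. The list was drawn from textbook knowledge, and whether each of its genes acts only at late steps was not examined. Of 16 late 40S factors 15 passed as higher (93.8%, against 23.9% of all tested genes), with a median log2 difference of 0.59. LTV1, a cytoplasmic maturation factor, rose 4.50-fold, PXR1, a G-patch protein, 2.58-fold, PNO1, an RNA-binding protein that carries over from the processome, 2.55-fold and the export factor RRP12 2.20-fold (adjusted p between 0.00131 and 0.0036). HRR25, a casein kinase with many other roles, was the gene that did not pass (log2 difference 0.14, adjusted p = 0.259).

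The lists for the large subunit and for RNA polymerase I, which makes the precursor, are given for comparison only. Of 65 factors for 60S assembly 58 passed as higher (89.2%) with a median of 0.84, and of 18 genes for RNA polymerase I and its initiation factors 11 did (61.1%) with a median of 0.50. SYO1, an import chaperone for ribosomal proteins, rose 5.02-fold and the 60S factors RPF1, RRS1 and NOG1 between 2.79-fold and 3.60-fold. RRN3, the polymerase I initiation factor, rose 2.78-fold, and the subunits RPA34, RPA43 and RPA135 between 1.55-fold and 2.17-fold. No difference between these lists and the processome genes was tested.

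**Figure D4:**
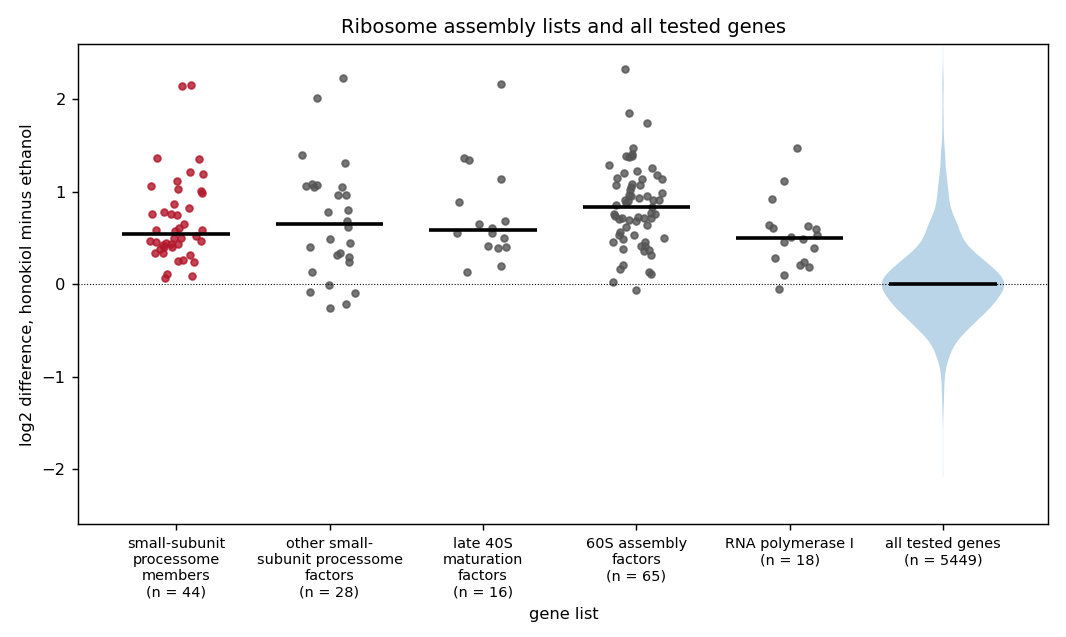
Log2 difference of honokiol minus ethanol (vertical axis) for the 44 processome genes (red), for 4 other lists of ribosome assembly genes (grey points, 1 a gene) and for all 5449 tested genes (violin, with 10 genes beyond the axis left out of it); black bars are medians over genes. The medians are 0.55 for the 44 genes, 0.65, 0.59, 0.84 and 0.50 for the other lists in the order drawn, and 0.0052 for all genes.

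Of 6 known regulators of the regulon, 2 passed as higher (33.3%) and 1 as lower (16.7%). These shares do not set the regulators apart from all tested genes, of which 23.9% passed as higher and 25% as lower. TOD6, a repressor that binds the PAC element found before many of these genes, had 8.35 and 8.42 with honokiol and 6.44 and 6.16 with ethanol, and rose 4.25-fold (log2 difference 2.09 ± 0.11; adjusted p = 0.00117). Its paralog DOT6 did not pass, with 11.20 and 11.17 against 11.08 and 11.19 (adjusted p = 0.583). STB3, which binds the RRPE element and also represses, had 9.76 and 9.82 against 10.30 and 10.19, and passed as lower with a log2 difference of -0.46 (adjusted p = 0.00754). SFP1, the activator, had 10.20 and 10.16 with honokiol and 9.88 and 10.00 with ethanol, a rise of 1.18-fold (adjusted p = 0.0438). This call was lost without either honokiol array, without ethanol array 1 and with all probe sets as features (adjusted p between 0.0751 and 0.235). The kinase genes TOR1 and SCH9 had log2 differences of -0.23 and -0.091 and did not pass (adjusted p = 0.0608 and 0.279).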

How the data were processed

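The authors' deposited values are linear intensity per probe set. The submitters' processing notes name RMA as the tool, and the sources used here give no version of it. Log2 was taken with no pseudocount. Of 10928 probe sets, 5498 named 1 S. cerevisiae gene of assembly R64, giving 5449 genes, each read through its brightest probe set. The background level, log2 4.37, is the 95th percentile of the means of probe sets for genes of another species.

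The 2 groups were compared through limma 3.58.1 in R 4.3.3 (lmFit, eBayes, two-sided, Benjamini-Hochberg over 5449 genes, threshold 0.05). The fit had 2 residual and 2.76 prior degrees of freedom. It was tried on 20 simulated data sets with independent errors and 200 changed genes each. These arrays had far more genes called, and differences that went with gene length. The simulation therefore says nothing about shifts shared between genes. Arrays give no counts, so their number limits the precision. Values on all 4 arrays were planned for the genes with the largest and smallest change in each subgroup, for members that did not pass and for regulators; those of NAN1, NSR1, UTP11, UTP20, FAF1, DHR2 and FCF1 were added after values were seen. Of other lists, up to 4 genes with the largest change are named. Members and lists were chosen with earlier results of these data known. The planned search for promoter motifs was not run, as promoter sequences were not used here.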

Additional observations from a re-analysis of the deposited data

How the results depend on the processing

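Among the 44 processome genes, 39 passed as higher in the fit reported; over the other fits with all 4 arrays the number was between 30 and 41, and 0 passed as lower in any fit. Their median log2 difference was 0.55, and 0.48 to 0.60 without each array in turn. Without each array, 16 to 38 of the 44 passed as higher, as did 439 to 1634 of all genes, with 264 to 1556 lower. The others ranged from 11 to 21 higher and 0 to 2 lower for the further processome factors, from 6 to 14 higher for late 40S factors, from 39 to 60 higher and 0 to 1 lower for 60S factors, from 5 to 15 higher for RNA polymerase I, and from 1 to 2 higher and 0 to 2 lower for regulators. Each fit without an array had 3 samples, with the error estimated from the pair left whole. Over all tested genes, the difference between replicates had an SD of 0.21 for the ethanol pair and 0.12 for the honokiol pair. Whether this accounts for the larger loss of calls without a honokiol array than without an ethanol array was not tested. Asking instead for 1.5-fold with no overlap of arrays gave 21 of the 44 genes higher, 596 higher and 305 lower of all genes, 8 late 40S factors, 7 polymerase I genes and 1 regulator higher, and 0 regulators and 0 further processome factors lower. Further processome factors that passed as lower also numbered 0 after quantile normalization again, with every probe set outside the AFFX controls as a feature (then 889 features lower) and with the 5′ to 3′ covariate. Regulators numbered 1 higher with all probe sets and with the replicate block, and 2 lower with an intensity trend and robust prior; the cause was not tested. RRP7, which did not pass, reversed to -0.045 with the 5′ to 3′ covariate. Without each array its log2 difference was between -0.0067 and 0.19, and that of UTP22 between -0.023 and 0.15. With the replicate block 41 of the 44 genes were higher, as were 1414 of all genes; UTP4 and NOP1 were gained, and the call of SFP1 was lost (adjusted p = 0.054). The numbers share no stated origin; deviations of same-numbered arrays correlated at 0.33 over genes, and with 2 pairs this is a hint only. Median centring, the pseudocount of 16, the dim filter, averaged probe sets and leaving out shared probe sets changed no call among the 44.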
